A study of Rattus norvegicus with 6 samples.

Results

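The genes of the cytosolic ribosomal proteins were followed in condylar cartilage, the cartilage that covers the jaw joint surface of the mandible. A member is a protein-coding row of the deposited gene table whose symbol is that of a small subunit protein (Rps followed by a number, or Rpsa) or of a large subunit protein (Rpl followed by a number, or Rplp0, Rplp1 and Rplp2). Its mean over the 6 libraries had to be at least 0.1 FPKM (fragments scaled to transcript length and library size), and the most abundant row was kept for each symbol. A total of 73 members met the rule, 28 of the small and 45 of the large subunit, among 30668 genes tested and 44746 genes in the table. Measured levels thus chose the row of a symbol with several rows and set the minimum, and no difference between the groups entered the rule. All 73 passed the minimum.

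A ribosome is built of a small subunit, which reads the messenger RNA, and a large subunit, which joins the amino acids, and each copy needs every ribosomal protein about once. The messages of these proteins belong to the most abundant in a growing cell. Most of them start with a run of pyrimidines (C and T in DNA), the terminal oligopyrimidine or TOP start, through which the kinase mTORC1 sets how strongly they are translated. Chondrocytes secrete large amounts of collagen and proteoglycan and so depend on this machinery. In humans, inherited defects of several ribosomal protein genes disturb red cell production or the skeleton.

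RNA was taken from female Sprague-Dawley rats that were 6 weeks old at the start and were killed 8 weeks later. The control rats (CON, 3 libraries) were compared with rats given unilateral anterior crossbite (UAC, 3 libraries), a procedure that sets the front teeth of 1 side in crossbite and so loads the joint abnormally. The number of rats behind a library is not given in the sources used here, so p-values measure the spread between these libraries only. No gene was altered in either group. Total counts per library ran from 71524713 to 86523541. The condylar tissue carried its chondrocyte markers (Col2a1 1014 to 1972 FPKM, Acan 165 to 309 FPKM), together with bone, blood and marrow markers, and UAC replicate 1 stood apart with the highest summed muscle markers (278 FPKM, against 29.1 and 39.1 in the other UAC libraries and 85.6 to 184 in CON). These are bulk samples, in which fewer cells of a type and less RNA per cell cannot be told apart.

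Levels of the members, in mean FPKM over the 6 libraries, spanned 61.6-fold. A total of 13 members lay above 200 FPKM, 26 between 100 and 200, 17 between 50 and 100, 13 between 20 and 50, and 4 at 20 or below. The 10 most abundant held 32.5% of the FPKM of all members. The highest level was that of Rplp1, an acidic protein of the stalk that recruits translation factors, with 361, 335 and 331 FPKM in the CON libraries and 341, 412 and 331 FPKM in the UAC libraries. Others among the 6 highest were Rpsa (333 FPKM), a small subunit protein also known as the laminin receptor, Rplp0 (313 FPKM), which holds the stalk on the large subunit, and Rpl19 (293 FPKM) of the large subunit. Each of these 4 overlapped the next named over the libraries. At the other end Rps29, a small zinc-binding protein of the small subunit, had 5.21, 4.19 and 5.68 FPKM in CON and 4.51, 8.52 and 6.18 FPKM in UAC. Rps21 (11.4 FPKM) and Rps13 (11.7 FPKM) of the small subunit, Rpl36a (17.1 FPKM) and Rpl7a (24.0 FPKM) of the large subunit, and Rplp2 (22.3 FPKM), the partner of Rplp1 in the stalk, were the other members at the low end. These are levels of single rows. The rows of Rps29, Rplp2 and Rpl7a held 0.974%, 25.3% and 35.6% of the counts naming their proteins. Those of Rpl36a, Rps21 and Rps13 held 63.7%, 90.7% and 100%.

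**Figure D1:**
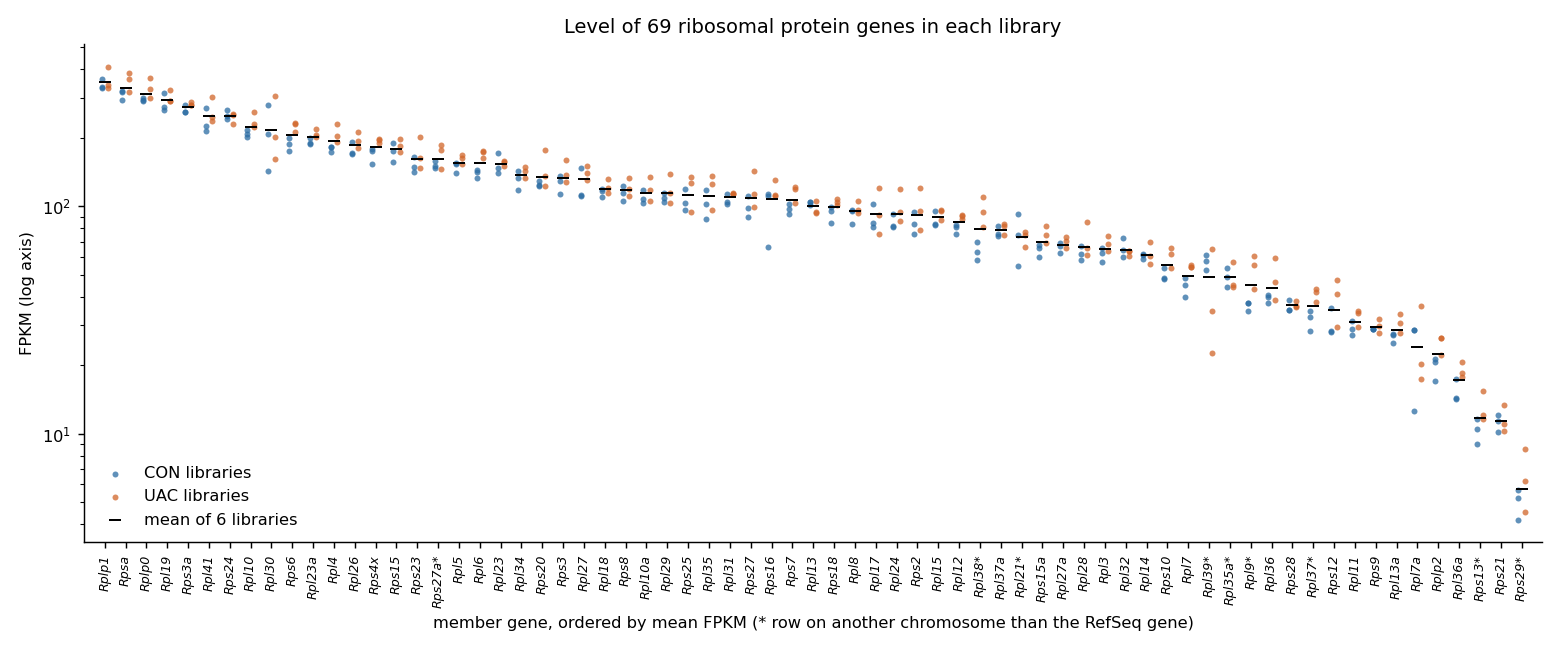
FPKM (log axis) of 69 of the 73 members in each library, ordered by mean level, with CON libraries in blue, UAC libraries in orange and the mean of 6 libraries as a black bar. The member rows run from Rplp1 at 352 FPKM to Rps29 at 5.71 FPKM, and the 6 libraries of most members lie close together against that range.

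The levels in FPKM showed little relation to the length of the row implied by counts and FPKM. Across the 73 members Spearman's rho between log2 mean FPKM and that length was -0.17, a description over genes that share the same 6 libraries. FPKM already contains this length as its divisor, and between mean count and this length rho was 0.54. The spread between libraries was small. The median coefficient of variation was 7.44% in CON and 9.21% in UAC, against 6.42% and 8.78% for the 5187 protein-coding genes at least as abundant as the lowest member. In 4 members (Rpl7a, Rpl30, Rps16 and Rpl21) it was above 20% in CON.

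The start sites are shown because the TOP start is the feature that these messages are known to share, and it was no part of the rule. The RefSeq promoter table (build GRCr8) listed 58 of the 73 symbols, and for 50 of them the RefSeq gene lay on the chromosome of the deposited row. The windows below run from 15 bases before to 15 bases after the RefSeq start, on the sense strand, for the members named for their level or for a small p. Capitals mark the longest run of C and T that touches the 5 bases on either side of the start. The windows lie at chr8:71290858-71290887 (Rplp1, minus strand), chr8:128728864-128728893 (Rpsa, plus strand), chr12:46718376-46718405 (Rplp0, minus strand), chr10:83519049-83519078 (Rpl19, plus strand), chr3:187724023-187724052 (Rps21, plus strand), chr16:96502-96531 (Rps24, plus strand), chr19:68062499-68062528 (Rpl13, plus strand), chrX:102059434-102059463 (Rpl36a, plus strand), chr1:205975906-205975935 (Rplp2, plus strand), chr3:30637121-30637150 (Rpl7a, plus strand) and chr12:41011676-41011705 (Rpl6, minus strand).
Rplp1: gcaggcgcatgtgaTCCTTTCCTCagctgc
Rpsa: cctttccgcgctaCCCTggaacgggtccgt
Rplp0: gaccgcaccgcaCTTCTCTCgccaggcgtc
Rpl19: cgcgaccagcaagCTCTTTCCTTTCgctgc
Rps21: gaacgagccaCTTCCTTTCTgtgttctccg
Rps24: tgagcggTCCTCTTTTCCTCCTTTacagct
Rpl13: ctttgcggtgcccgaTCCTTTCCgctcggc
Rpl36a: ccgcctataaaCTTCCgttgctgctctagc
Rplp2: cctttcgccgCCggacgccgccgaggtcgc
Rpl7a: ctctcctccagCCgagcaagatggtgagtg
Rpl6: tatttttacaTCactagatggcgggtgaaa

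In these windows Rplp1, Rplp0, Rpl19, Rps21, Rps24 and Rpl13 carried runs of 8 to 17 bases, whereas Rplp2, Rpl7a and Rpl6 had runs of 2 bases at the annotated start. Of the 50 members, 34 (68.0%) had a run of at least 6 bases, against 18.7% of the 33469 promoters in the table, and 31 (62.0%) had at least 8 bases, against 8.67%. The first transcribed base was C in 25 of the 50 members and in 24.1% of all promoters. The letters CTTTCC, searched on the sense strand within 15 bases of the start, stood in 12 members (24.0%) and in 1.24% of all promoters. Over the whole 300 bases, on either strand, CCGGAAG was found in 16 of the 50 members and in 8.75% of all promoters, and TATAAA in 5 of the 50 and in 14.2%. The 34 members with a run of at least 6 bases had a median level of 108 FPKM and the other 16 had 113 FPKM. These medians lay close together. The median log2 fold change, UAC minus CON, was 0.08 with such a run and 0.16 without, a difference that was not tested. These matches describe the letters in the window only.

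Genes of ribosomal proteins have left many processed copies in mammalian genomes, and reads of a gene and of such a copy are hard to tell apart. For this reason the place of each row was compared with the RefSeq gene of its symbol. For 64 members the row lay on the chromosome of the RefSeq gene, and for 9 it lay on another. These 9 were Rpl21, Rpl35a, Rpl37, Rpl38, Rpl39, Rpl9, Rps13, Rps27a and Rps29, and their values are uncertain as measures of the gene named. The row called Rpl38 lies at chr8:63119395-63119607 in the coordinates of the deposited table, whose build is not given in the sources used here, and it spans 213 bases, while the RefSeq gene is on chromosome 10. The row called Rps27a, on chromosome 5, had 161 FPKM, and a second row of the symbol, on chromosome 14 as in RefSeq, had 22.9 FPKM. For Rps29, a row under another name (LOC108352650, chromosome 6) had 575 FPKM, and the Rps29 row itself held 0.974% of the counts whose description named the protein. In all, 208 rows named a cytosolic ribosomal protein in their description. The member row held a median of 97.7% of its protein's counts, over 90% in 46 members and under 50% in 9.

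The comparison of UAC with CON asks which messages change in cartilage under abnormal load. Ribosomal protein messages were slightly more abundant in UAC, by a median log2 fold change of 0.12 (8.79%), with 64 of 73 members (87.7%) above 0. The median was -0.00 over all 30668 genes tested, of which 49.7% lay above 0, and -0.04 over the 15001 protein-coding genes, of which 42% lay above 0. No single member passed the test. At an adjusted p under 0.05 (edgeR's quasi-likelihood test, Benjamini-Hochberg over all genes) 0 members and 6 genes in all (0.0196%) were called, and the smallest adjusted p of a member was 0.448. At an unadjusted p under 0.05, 7 members (9.59%) were higher in UAC, against 4.69% of all genes and 3.81% of protein-coding genes. At the same threshold 0 were lower, against 4.39% and 6.57%. At the thresholds of the study, which add a log2 fold change beyond 1 in either direction, 0 members were called, against 1.2% of genes higher and 0.681% lower. DESeq2, run as an alternative, called 1 member, Rpl38 (adjusted p = 0.0285), and 358 genes. Over its 18 alternatives the adjusted p of Rpl38 ran from this value to 0.841. The members' median standard error of the log2 fold change was 0.11, close to their median difference.

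**Figure D2:**
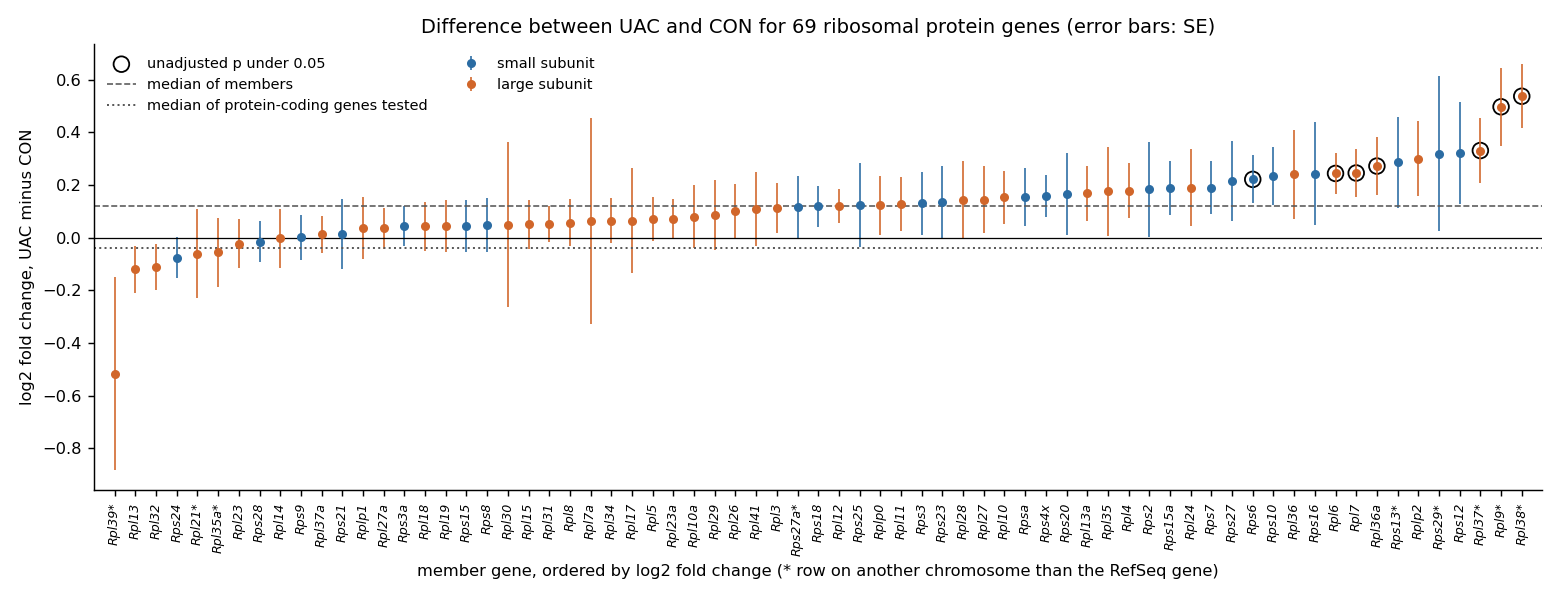
Log2 fold change of 69 of the 73 members, UAC minus CON, with its standard error, ordered by size, with small subunit members in blue and large subunit members in orange. Circles mark the 7 members at an unadjusted p under 0.05, all higher in UAC, and the dashed line marks the median of 0.12 over all 73 above the dotted median of -0.04 of protein-coding genes.

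Both subunits moved to the same side. The median log2 fold change was 0.16 over the 28 small subunit members, of which 26 lay above 0, and 0.09 over the 45 large subunit members, of which 38 did. In FPKM all 3 UAC libraries lay above all 3 CON libraries in 20 members (27.4%), against 9.84% of all genes and 8.55% of protein-coding genes. They lay below them in 0 members, against 5.87% and 8.03%. This count depends on the scaling. FPKM takes no account of composition, and on CPM (counts scaled to library size) corrected by TMM factors (trimmed mean of M-values) it was 9 members (12.3%), against 7.93% of all genes. Those apart in FPKM included Rpl38, Rpl9, Rpl6, Rpl37, Rpl7, Rpl36a, Rps6, Rps10, Rplp2, Rps4x, Rps7, Rpl12, Rps15a, Rpl4, Rpl13a, Rpl10, Rps18, Rpl23a and Rpl31.

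The libraries did not contribute equally. Members took 0.955%, 0.900% and 1.012% of all counts in CON and 1.002%, 1.134% and 1.050% in UAC, or 0.956 ± 0.0560% against 1.06 ± 0.0668% (SD, n = 3). The highest CON library lay above the lowest UAC library, so the groups overlapped. UAC replicate 2 was the highest of the 6 libraries in 48 members, and CON replicate 2 was the lowest in 45. The median member in UAC replicate 1 lay 0.05 above the CON mean on log2 FPKM but -0.04 from it on TMM-scaled counts, against 0.26 on both scales in UAC replicate 2, and 0.13 and 0.09 in UAC replicate 3. Without UAC replicate 2 the median log2 fold change of the members was 0.03, and at an unadjusted p under 0.05 a rise was seen in 3 members and a fall in 2. Without UAC replicate 1 it was 0.21, and 21 members were higher. The shares of all genes higher or lower in these fits are not given here, so these counts have no background beside them. The sign of the median was thus the same with every library left out, while its size rested on UAC replicate 2.

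**Figure D3:**
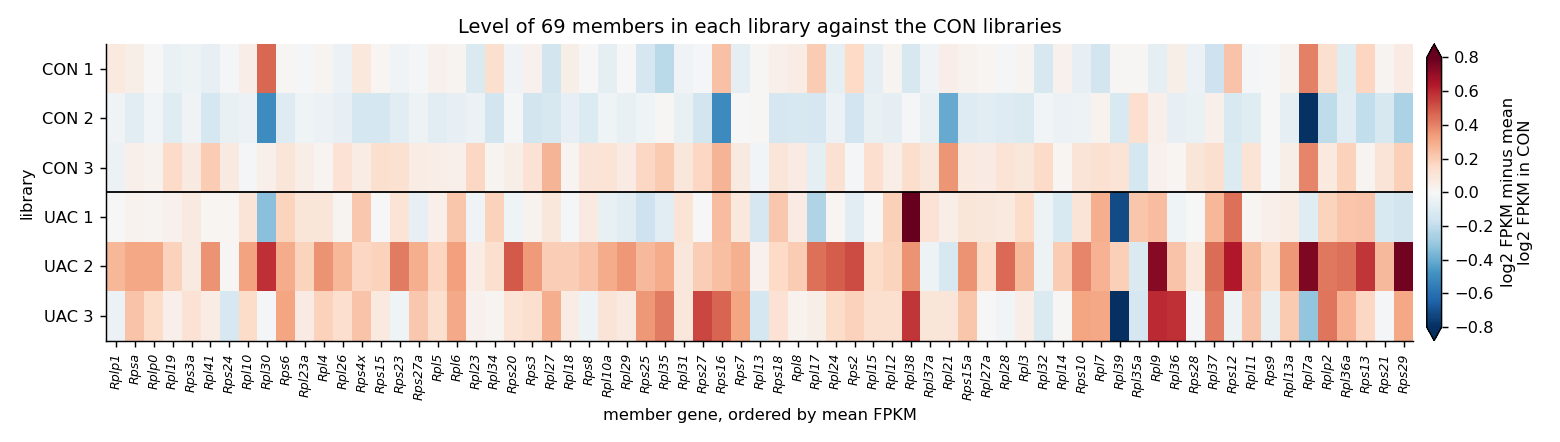
Log2 FPKM of 69 members in each library minus its mean log2 FPKM in CON, as colour (red higher, blue lower, cut at 0.8 on either side), with members ordered by mean level. The row of UAC replicate 2 is red in nearly all members (over all 73, 69 above the CON mean) and that of CON replicate 2 is pale blue (8 of all 73 above it), while Rpl39 is dark blue in UAC replicates 1 and 3.

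Collagen genes took a smaller share of the counts in UAC, with 13.72%, 14.51% and 12.79% in CON and 11.83%, 12.04% and 10.96% in UAC, and the groups did not overlap. Col1a1, the main collagen of bone and fibrous tissue, alone took 10.0 ± 0.747% in CON and 8.39 ± 0.760% in UAC. With the collagen genes left out of the total, members took 1.11 ± 0.0538% in CON and 1.20 ± 0.0788% in UAC, with overlap between the groups. With protein-coding rows as the total, members took 1.147% to 1.288% in CON and 1.298% to 1.501% in UAC, and on this total the groups did not overlap, by a narrow gap. The ratio of the UAC to the CON mean was 1.11 with all counts, 1.09 without collagen genes and 1.15 with protein-coding rows as the total. The balance of the subunits hardly moved. The small subunit held 39.7 ± 0.153% of the members' FPKM in CON and 40.3 ± 0.279% in UAC, and the lowest UAC library (40.1%) lay above the highest CON library (39.9%).

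**Figure D4:**
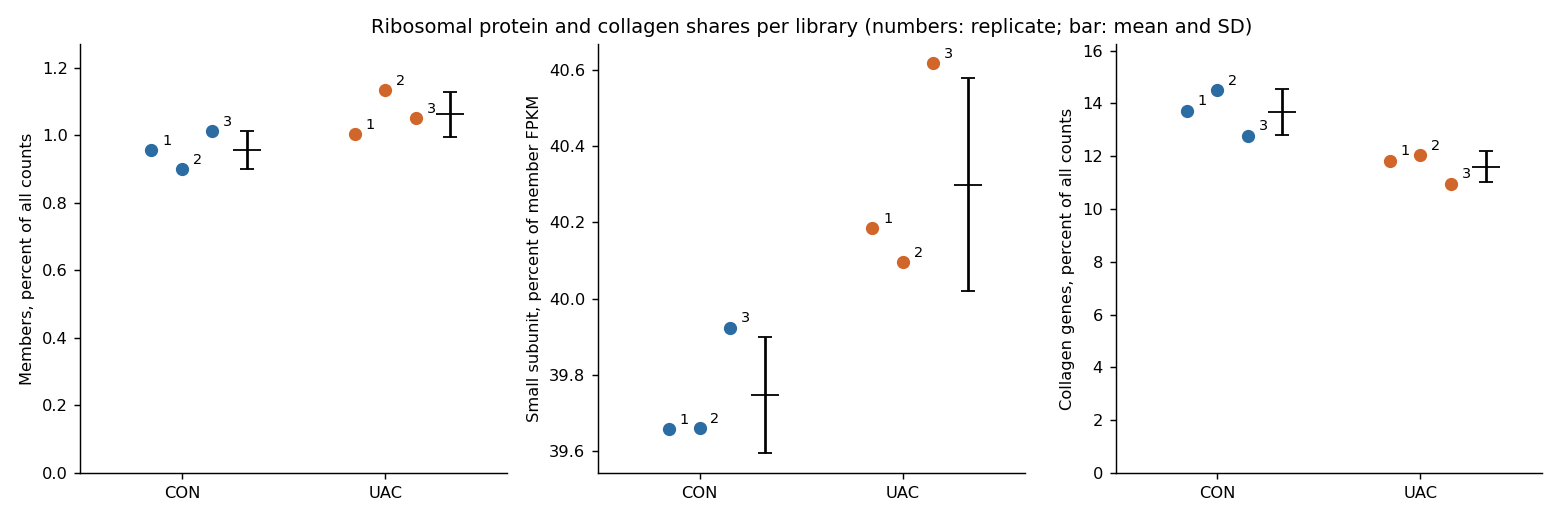
Share of all counts held by the members (left), share of the members' FPKM held by the small subunit (middle, axis not from 0) and share of all counts held by collagen genes (right) in each library, with replicate numbers, and the mean and SD of 3 libraries in black. The member share overlaps between CON and UAC (1.012% in CON replicate 3 against 1.002% in UAC replicate 1), and the collagen share does not.

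Of the 7 members at an unadjusted p under 0.05, 6 were large subunit members. Rpl38, a large subunit protein that in the mouse is known for its part in patterning the axial skeleton, had 58.0, 62.7 and 69.9 FPKM in CON and 110, 81.3 and 94.0 FPKM in UAC. All UAC libraries lay above all CON libraries, by 49.9% in the mean, with a log2 fold change of 0.54 ± 0.12 (SE) and an adjusted p of 0.448. Rpl9 had 34.7, 37.7 and 37.6 FPKM in CON and 43.4, 60.5 and 55.4 FPKM in UAC. Its groups did not overlap either, and its log2 fold change was 0.50 ± 0.15 (SE, adjusted p = 0.492). Rpl37, a zinc-binding protein of the large subunit, had 28.2, 32.5 and 34.6 FPKM in CON and 38.1, 43.1 and 42.1 FPKM in UAC, a log2 fold change of 0.33 ± 0.12 (SE). These 3 are among the rows that lie on another chromosome than their RefSeq gene.

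The other 4 rows lay on the chromosome of their RefSeq gene. Rpl6 of the large subunit, whose window above shows a run of only 2 bases at the start, had 142, 134 and 144 FPKM in CON and 163, 175 and 173 FPKM in UAC. The lowest UAC library lay well above the highest CON library, with a log2 fold change of 0.24 ± 0.08 (SE, adjusted p = 0.500). Rpl7 had 40.1, 45.2 and 48.3 FPKM in CON and 54.2, 53.9 and 55.1 FPKM in UAC, a log2 fold change of 0.25 ± 0.09 (SE). Rpl36a, near the low end of the levels, had 14.3, 14.3 and 17.3 FPKM in CON and 17.8, 20.7 and 18.4 FPKM in UAC. In FPKM only a narrow gap parted its groups, and on TMM-scaled counts they overlapped. Its log2 fold change, fitted on the counts, was 0.27 ± 0.11 (SE). Rps6, the small subunit protein that S6 kinase phosphorylates downstream of mTORC1, had 188, 174 and 200 FPKM in CON and 212, 230 and 233 FPKM in UAC. The log2 fold change of Rps6 was 0.22 ± 0.09 (SE, adjusted p = 0.547), the smallest of the 7.

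Since rows of 1 protein can share reads, the counts of all rows naming the same protein were summed and fitted again, a step chosen after seeing the data. The median log2 fold change over the 73 proteins stayed at 0.12, with 66 above 0, and 3 (L38, L7 and S6) were higher at an unadjusted p under 0.05 and 0 lower, with a smallest adjusted p of 0.446. Summed over 5 rows, the protein of Rpl38 had 24.2, 26.7 and 21.8 CPM in CON and 35.9, 46.2 and 31.6 in UAC, a log2 fold change of 0.65 ± 0.15 (SE). The row called Rpl38 held 59.1% of these counts. The other 4 rows of the protein had 10.4, 11.4 and 5.61 CPM in CON and 11.3, 26.9 and 9.89 CPM in UAC, so outside the member row only UAC replicate 2 lay above the CON libraries. For Rpl9 the member row held 29.5% of the counts of 5 rows, the log2 fold change of the sum was 0.25 ± 0.12 (SE), and the groups overlapped. For Rps29 it went from 0.32 in the member row to 0.09 in the sum, and for Rps12 from 0.32 to 0.13. For Rpl36a it went from 0.27 to 0.18 ± 0.14 (SE), the groups overlapped in the sum, and the unadjusted p of edgeR's test was 0.236. With the 9 rows on another chromosome left out, the median of the 64 other members was 0.12, 58 lay above 0, and 4 (6.25%) were higher at an unadjusted p under 0.05.

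**Figure D5:**
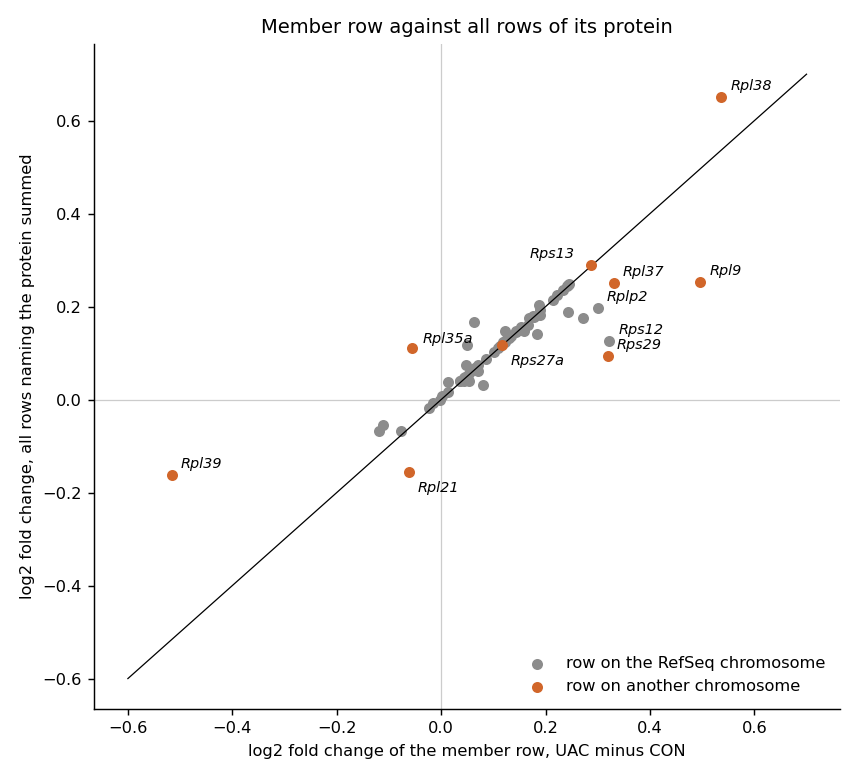
Log2 fold change (UAC minus CON) of 69 member rows on the horizontal axis and of the sum of all rows naming its protein on the vertical axis, with the diagonal as a line and the rows on another chromosome than the RefSeq gene in orange. Most members lie on the diagonal, while Rpl39 (-0.52 against -0.16), Rpl9 (0.50 against 0.25) and Rps29 (0.32 against 0.09) lie away from it.

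The members were then grouped by known role, with medians from 0.07 to 0.13 in the groups of more than 1 member. All 4 proteins of the stalk and its base were measured, with log2 fold changes from 0.04 (Rplp1) to 0.30 (Rplp2) and a median of 0.12. Rplp2 had 21.4, 17.0 and 20.7 FPKM in CON and 22.1, 26.2 and 26.4 FPKM in UAC, and Rpl12 had 81.4, 75.9 and 83.1 FPKM against 91.3, 90.5 and 87.5 FPKM. In FPKM both were without overlap, as all UAC lay above all CON in 9.84% of all genes. With all rows of each protein summed, both overlapped on TMM-scaled CPM. CON replicate 1 against UAC replicate 1 had 34.0 against 31.3 CPM for the protein of Rplp2, and 97.3 against 95.5 CPM for that of Rpl12. Rplp0 (295, 290 and 301 FPKM against 300, 365 and 327 FPKM) overlapped. Rplp1 and Rplp2 work as dimers, yet the Rplp1 row stood at 352 FPKM and the Rplp2 row at 22.3 FPKM, and the Rplp2 row held 25.3% of the counts naming its protein. Rpl5 and Rpl11, which carry the smallest ribosomal RNA into the large subunit and bind the p53 regulator MDM2 when they are free, had log2 fold changes of 0.07 ± 0.08 and 0.13 ± 0.10 (SE). Their levels were 155 and 30.9 FPKM, and CON and UAC overlapped in both.

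The 8 measured proteins that line or surround the exit tunnel of the large subunit had a median log2 fold change of 0.07. Their range ran from -0.52 (Rpl39) to 0.18 (Rpl4), and Rpl4, Rpl23a and Rpl31 had groups apart in FPKM. Of 4 small subunit proteins at the channel for the messenger RNA or the decoding site (Rps2, Rps3, Rps15 and Rps23), 0 had groups apart, with a median of 0.13 and a range from 0.04 to 0.18. Rps27a, made as a fusion with ubiquitin, had 151, 148 and 159 FPKM in CON and 145, 187 and 177 FPKM in UAC, which overlap, and a log2 fold change of 0.12 ± 0.12 (SE). Among 16 members whose human genes are mutated in Diamond-Blackfan anemia, a failure of red cell production, the median was 0.11. The range ran from -0.08 (Rps24) to 0.32 (Rps29), and 3 (Rps7, Rps10 and Rpl31) had groups apart in FPKM. On that scale all UAC lay above all CON in 9.84% of all genes. With all rows of each protein summed, Rpl4, Rpl23a, Rpl31, Rps7 and Rps10 overlapped on TMM-scaled CPM. In these 6 roles 0 members were at an unadjusted p under 0.05 in edgeR's test.

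A total of 9 members had a log2 fold change below 0, and the 6 with the smallest p are described here. Rpl39, a very short protein of the exit tunnel, was the most divided. Its row had 57.3, 52.3 and 61.4 FPKM in CON and 34.6, 64.9 and 22.6 FPKM in UAC, so 2 UAC libraries lay below and 1 above all CON libraries, with a log2 fold change of -0.52 ± 0.37 (SE, adjusted p = 0.703). Summed over 7 rows its protein had 77.5, 73.8 and 81.7 CPM in CON and 67.3, 76.1 and 64.3 in UAC. Rpl13, mutated in a human skeletal dysplasia, had 104, 104 and 102 FPKM in CON and 94.3, 106 and 93.8 FPKM in UAC, a log2 fold change of -0.12 ± 0.09 (SE). Rpl32 of the large subunit (60.0, 64.5 and 72.9 FPKM against 63.7, 63.8 and 60.6 FPKM) and Rps24 of the small subunit (249, 241 and 264 FPKM against 254, 253 and 230 FPKM) had -0.11 ± 0.09 and -0.08 ± 0.08 (SE). Rpl21 and Rpl35a, both rows on another chromosome than the RefSeq gene, had -0.06 ± 0.17 and -0.06 ± 0.13 (SE), and every one of these 6 overlapped between the groups.

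A few members varied strongly inside a group, and they are named here after their values were seen. The row of Rpl30, of the large subunit, had 280, 144 and 209 FPKM in CON and 161, 305 and 201 FPKM in UAC, a range of 2.13-fold. No difference between the groups was detected at this spread (0.05 ± 0.31, SE). That row held 60.1% of the counts naming its protein. The other 6 rows had 28.0, 67.7 and 61.2 CPM in CON and 67.6, 49.7 and 64.2 CPM in UAC. Summed over all rows, the protein of Rpl30 varied less, with 136, 125 and 140 CPM in CON and 126, 168 and 140 CPM in UAC (0.12 ± 0.12, SE). Rpl7a had 28.7, 12.5 and 28.5 FPKM in CON and 20.3, 36.4 and 17.4 FPKM in UAC. A second Rpl7a row on the same chromosome had 23.9 FPKM on average, nearly the level of the first (24.0 FPKM). This second row had 25.3, 10.6 and 24.5 FPKM in CON and 31.2, 31.7 and 19.9 FPKM in UAC. Summed over 3 rows, the protein of Rpl7a had 112, 78.9 and 101 CPM in CON and 108, 153 and 66.4 CPM in UAC. Whether reads were split between the rows was not tested. Rps16 of the small subunit was low in CON replicate 2 alone (111, 66.3 and 114 FPKM in CON, 112, 111 and 130 FPKM in UAC). In the member rows of Rpl30, Rpl7a and Rps16 the lowest library was CON replicate 2.

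Ribosomal proteins and their paralogs whose symbols fall outside the rule were followed too, and 5 of 9 had a log2 fold change above 0. Rack1, a scaffold on the small subunit, had 92.4, 91.7 and 96.6 FPKM against 98.7, 124 and 97.2 FPKM, with groups apart by a narrow gap (0.15 ± 0.12, SE). Fau, a small subunit protein fused to a ubiquitin-like protein, varied most, with 43.4, 57.0 and 38.8 FPKM in CON and 23.0, 45.6 and 68.6 FPKM in UAC. The paralogs were low. Rpl36al (17.6 to 28.7 FPKM), Rps27l (19.3 to 23.7 FPKM), Rpl7l1 (13.4 to 14.8 FPKM), Rpl22l1 (4.42 to 6.95 FPKM), Rpl10l (1.42 to 2.69 FPKM) and Rpl39l (0.0889 to 0.436 FPKM) had log2 fold changes from -0.21 to 0.19. Rpl3l, the muscle form of Rpl3, had 2.35, 2.87 and 2.98 FPKM in CON and 4.78, 2.03 and 1.62 FPKM in UAC, and its highest library was UAC replicate 1, the one with the highest muscle markers. Of these 9 genes 0 were at an unadjusted p under 0.05 in edgeR's test.

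Genes that work with the ribosome were counted from lists. Among 30 initiation factors 1 was higher at an unadjusted p under 0.05 (Eif4g3, 0.22 ± 0.09, SE) and 0 lower, and the median log2 fold change was 0.02. Among 12 elongation and termination factors 0 were, and Eef1a1, which brings transfer RNAs to the ribosome and is itself a TOP message, had 333, 331 and 360 FPKM in CON and 377, 416 and 375 FPKM in UAC. The 17 TOP messages listed beside the members had a median of 0.06, with 13 above 0. In FPKM 5 had groups apart, all higher in UAC, against 9.84% of all genes. At an unadjusted p under 0.05 there were 0 of the 17. Nap1l1 (0.14 ± 0.08, SE) and Btf3 (0.16 ± 0.10, SE) were the first of these by p. The factors that build ribosomes lay close to the protein-coding genes as a whole, whose median was -0.04 with 42% above 0. Of 48 biogenesis genes 16 (33.3%) lay above 0 (median -0.03), and 1, Nob1, which trims the small subunit's RNA, was lower (-0.39 ± 0.14, SE), and the 8 dedicated chaperones of ribosomal proteins had a median of -0.06.

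Of 19 genes of mTORC1 and of TOP control 1 was lower, Tsc2, an inhibitor of mTORC1 (7.31, 8.02 and 7.08 FPKM in CON, 6.97, 6.04 and 5.53 FPKM in UAC). The list median was -0.05. Of 18 ribosome quality control genes 2 were lower, Zfp598, which senses collided ribosomes (-0.23 ± 0.07, SE), and Edf1, which works with it (-0.29 ± 0.10, SE), against 0 higher. The 11 genes of the p53 and nucleolar stress list included 0 at this threshold, and their first, Cdkn1a, had 9.17, 8.66 and 8.47 FPKM in CON and 9.81, 13.0 and 10.5 FPKM in UAC (0.30 ± 0.14, SE). The 74 mitochondrial ribosomal proteins tested had a median of -0.08, with 26 (35.1%) above 0, beside a median of -0.04 and 42% of all protein-coding genes. Of them 2 were lower, Mrpl43 (-0.51 ± 0.11, SE) and Mrps10 (-0.37 ± 0.14, SE). No gene of these lists passed the adjusted threshold (adjusted p at least 0.448 for each). Of 14 snoRNA host genes listed, 13 were not found in the table under these symbols and 1 (Snhg11) was under the level minimum, so the list was not analysed here.

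Marker genes of other cells moved between the groups as well. Summed markers of T and NK cells (8 listed, 7 tested) ran from 19.9 to 29.1 FPKM in CON libraries and from 31.4 to 39.9 FPKM in UAC libraries, with 4 of 7 higher at an unadjusted p under 0.05. Neutrophil and precursor markers (9 listed, 8 tested) ran from 1872 to 2163 FPKM and from 2160 to 3853 FPKM, with 4 of 8 higher. Fibrous layer and bone markers (6 tested) ran from 17530 to 19863 FPKM in CON and from 14535 to 16715 FPKM in UAC, and 3 of 6 were lower. The chondrocyte markers (2127 to 3192 FPKM in CON, 1681 to 3380 FPKM in UAC) and the markers of dividing cells (74.5 to 106 and 91.1 to 110 FPKM) overlapped, with 0 of 10 and 0 of 6 at this threshold. UAC replicate 2, the highest library in most members, was also the highest in chondrocyte markers and the lowest of UAC in neutrophil markers. Macrophage, B and plasma cell, and adipocyte markers also had higher sums in UAC, without overlap. Macrophage markers ran from 879.7 to 1097 FPKM in CON and 1149 to 1695 FPKM in UAC (1 of 8 higher, 2 lower). B and plasma cell markers ran from 94.6 to 134 and 139 to 208 FPKM (2 of 9 higher, 1 lower). Adipocyte markers ran from 4.14 to 5.66 and 5.73 to 14.6 FPKM (3 of 4 higher). The median log2 fold changes of these lists were -0.0006 (4 of 8 above 0), 0.05 (6 of 9) and 1.34 (4 of 4). Endothelial markers had lower sums (33.4 to 35.8 FPKM in CON, 27.5 to 32.2 FPKM in UAC, 2 of 4 lower), erythroid markers overlapped (4204 to 8243 and 6660 to 8254 FPKM, 0 of 8), and of 10 muscle markers 1 was lower. Among the markers listed there, 0 were absent from all 6 libraries, and 3 (Gzma, Ltf and Lep) were under the level minimum. The part of these cells in the members' difference was not tested.

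Circular and long noncoding RNAs at the member genes were few. Of 7294 circRNAs 6 came from 5 member genes (Rpl31, Rpl4, Rplp0, Rps3 and Rpsa), with at most 2 junction reads in a library and 4 reads in CON and 4 in UAC over all 6, too few to compare. In the lncRNA table, 11 transcripts were placed at genes of 6 member symbols. Of these, 3 spliced forms at Rpl41, which encodes the shortest ribosomal protein, are described after their values were seen. One had 335 FPKM in UAC replicate 1 and at most 0.879 FPKM in the others, another had 101 FPKM in UAC replicate 1 and was listed as absent elsewhere, and a further one had 69.7, 93.2 and 58.4 FPKM in CON and 37.7, 42.8 and 24.4 FPKM in UAC. Forms at Rps27a and Rpl37a also varied between libraries, among them one at Rps27a with 18.5 FPKM in CON replicate 1 that was listed as absent in the others. The forms at Rps27a belonged to the second row of the symbol, on chromosome 14, and not to the member row on chromosome 5. The gene row of Rpl41 did not follow the forms at its locus, with 226, 214 and 271 FPKM in CON and 238, 302 and 246 FPKM in UAC.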

How the data were processed

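Expression was measured in condylar cartilage by RNA sequencing after removal of ribosomal RNA, with 3 libraries each of CON and UAC. For the deposited files the authors removed adapters (cutadapt, 1.9 in the submitters' processing notes), aligned with Bowtie2 and Hisat2, and assembled and merged transcripts with StringTie. Which build was used, and which versions of the aligners, is not given in the sources used here. From these assemblies the authors deposited whole-number counts and FPKM for each gene. For lncRNA transcripts they deposited FPKM, with a fill-in of 0.0001 for a transcript not seen, and a read coverage that has no depth scaling and was left unused. For circRNAs they deposited counts of junction reads, which were used, and a library-scaled score called SRPBM, which was not.

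Genes with a mean of at least 0.1 FPKM were fitted on counts with edgeR 4.0.16 (TMM, quasi-likelihood test) in R 4.3.3, with Benjamini-Hochberg adjustment over all 30668 genes. Levels between genes are compared in FPKM only. Standard errors come from the coefficient and the F statistic. Depth was 71524713 to 86523541 counts a library. The fit was tested on simulated data. Row descriptions gave the protein a row names, and RefSeq (GRCr8) gave the chromosome and the start of each gene.

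The members and gene lists were chosen with earlier results of these data known. Named members are the 6 highest and 6 lowest in level, the 6 with the smallest p in each direction, and the proteins of the stalk, the carriers of the smallest ribosomal RNA, Rps6 and Rps27a. All ribosomal protein genes listed outside the rule are named, and up to 3 genes by smallest p from the other lists. Start windows were planned for the members named for level or p, and are shown where RefSeq lists a start on the chromosome of the row. Members named for their spread, and those at the Rpl41 locus of the lncRNA table, were chosen after their values were seen. Some genes that these rules and lists take in are not reported here, although counts and medians over all 73 members include the members among them. Rps14, Rps19, Rps26 and Rpl22 were not analysed here as members. Alternatives were other scalings and level minimums, a robust fit, DESeq2 1.42.0, limma 3.58.1 on log2 FPKM with pseudocounts of 0.01, 0.1 and 1, protein-coding rows only, a replicate block, other denominators for shares and each library left out. Sums over rows of 1 protein, with and without the member row, rows on the RefSeq chromosome, and groups apart on scaled counts or without each library were added after seeing the data.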

Additional observations from a re-analysis of the deposited data

How the results depend on the processing

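The median log2 fold change of the 73 members kept its sign in all 19 alternatives, from 0.03 without UAC replicate 2 to 0.21 without UAC replicate 1. The count of members called at an adjusted p under 0.05 was 0 except with DESeq2 (1, Rpl38). The 7 members higher at an unadjusted p under 0.05 became 11, 12 and 13 with limma at pseudocounts of 0.01, 0.1 and 1. At these settings 2609, 2634 and 2624 of all genes were at this threshold in either direction, against 2785 in the main fit. The members were 12 with protein-coding rows only, 3 with rows of 1 protein summed and 4 with rows on the RefSeq chromosome. With 1 library left out they ran from 3 (without CON replicate 1 or UAC replicate 2) to 21 (without UAC replicate 1). The shares of all genes higher in these fits are not given here. The 20 members with all UAC above all CON in FPKM became 9 on TMM-scaled, 9 on median-ratio-scaled and 11 on upper-quartile-scaled CPM. Over all genes the shares were 9.84% in FPKM and 7.93%, 8.32% and 8.01% on these scales. With 1 library left out the members were 20 to 38 (38 without UAC replicate 1 or CON replicate 3). The share of all genes then rose too, to between 12.8% and 17.4%. It was 15.4% without UAC replicate 1 and 17.4% without CON replicate 3. The difference in the share of counts, 0.107 percentage points, became 0.178 with protein-coding rows as the total and ran from 0.0709 to 0.137 with 1 library left out. The cause of these changes was not tested.

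The 6 genes called among all genes became 358 with DESeq2, 1, 3 and 2 with limma at 0.01, 0.1 and 1, 2 at a minimum of 1 FPKM, 1 among protein-coding rows and 0 with a replicate block, and ran from 5 to 14 with 1 library left out. The 2785 genes at an unadjusted p under 0.05 became 1564 among protein-coding rows, which are fewer genes tested, and ran from 1738 (without CON replicate 2) to 3150. With the replicate block 5 members were higher at an unadjusted p under 0.05 and the median was 0.11. Between samples with the same number, the correlations of their deviations from the group means were -0.0196, -0.0120 and -0.0310. Between samples with different numbers they ran from -0.0135 to 0.0336. These values cannot show whether samples with the same number shared a harvest or a batch.

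Of 487 values over 26 named members 14 changed sign, each with an adjusted p of at least 0.756. Rpl21 went to 0.0074, 0.0073 and 0.0069 with limma at pseudocounts of 0.01, 0.1 and 1, and Rpl35a to 0.11 with rows of 1 protein summed. With 1 library left out, Rpl21 ran from -0.22 to 0.11, Rpl35a from -0.15 to 0.036, Rpl7a from -0.36 to 0.26, Rps21 from -0.13 to 0.11, Rplp1 from -0.089 to 0.098 and Rpl19 from -0.028 to 0.11.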

Other observations

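The proteins S14, S19, S26, L22 and S30 had no member symbol (S30 is also encoded by Fau, described above), and the rows whose description named them were the single row LOC100911847 for S14 (176 FPKM), 5 rows for S19 led by Rps19l2 (59.3 FPKM), 5 rows for S26 that reached 1.93 FPKM, 2 rows for L22 led by LOC100360057 (15.7 FPKM) and 1 row for S30 (LOC100360647, 23.3 FPKM). Their summed log2 fold changes were 0.11 ± 0.11, -0.06 ± 0.16, 0.37 ± 0.35, 0.01 ± 0.06 and -0.80 ± 0.83 (SE), of which 0 were at an unadjusted p under 0.05. For 8 members (Rpl13a, Rpl35a, Rpl36a, Rpl7a, Rplp2, Rps12, Rps2 and Rps29) the most abundant row naming the protein was not the member row. The most extreme of these was Rps29, with 575 FPKM under LOC108352650 against 5.71 FPKM under its own symbol.

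Among second rows of member symbols, those of Rpl32 on chromosome 6 (12.4 FPKM, log2 fold change 0.77 ± 0.25, SE) and of Rps10 on chromosome 6 (14.8 FPKM, 0.30 ± 0.12, SE) had groups apart, with UAC higher. The member row of Rpl32 had -0.11 ± 0.09 (SE), so the rows of 1 symbol lay on opposite sides of 0. Whether these rows measure a copy of the gene or reads of the gene itself was not tested.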
